A study of Urocitellus parryii with 3 samples.

Results

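The miR-200 family was followed across hibernation in liver of Urocitellus parryii, the arctic ground squirrel, with Agilent arrays designed for mouse miRNAs. Its 5 members were chosen by name as the miRNA entries mmu-miR-200a, mmu-miR-200b, mmu-miR-200c, mmu-miR-141 and mmu-miR-429, out of 567 mouse miRNA entries on the array. The stages were early arousal, when the animal rewarms from torpor, late torpor (spelled "late topor" in the labels), when metabolism and body temperature are low, and post-reproduction, outside the hibernation season. The labels give no strain, age, sex or treatment. Liver RNA from animals of a stage was mixed into 1 pool, and each pool was hybridised to 1 array. The 3 arrays lay on 1 slide, so a stage cannot be told apart from its pool or its place on the slide, and no test between stages was possible. Precision is limited by having 1 array a stage: errors over spots cover the array only, not the spread between animals.

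The miR-200 family marks epithelial cells. Its members repress the transcription factors ZEB1 and ZEB2, which in turn repress E-cadherin, the adhesion protein of epithelial junctions, and the family is known for holding cells in an epithelial state. In liver it is known mainly from the epithelium of the bile ducts, and hepatocytes hold little of it. In pooled tissue RNA, fewer cells of a type and less miRNA per cell cannot be told apart.

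The family falls into 2 seed groups, a seed being the stretch near the start of a miRNA that pairs with its targets. miR-200b, miR-200c and miR-429 share a seed, and miR-141 and miR-200a share another. The members are also made from 2 clusters, which cut across the seed groups. In the files the targets of miR-429, miR-200a and miR-200b lie on mouse chromosome 4 (mm9) within 1786 bases, from 155428025 to 155428043 for miR-429, from 155429020 to 155429037 for miR-200a and from 155429794 to 155429810 for miR-200b. Those of miR-141 and miR-200c lie on chromosome 6 within 423 bases, from 124667935 to 124667951 for miR-141 and from 124668342 to 124668357 for miR-200c. Each member had 2 probes with 10 spots each on an array, whose targets covered 15 to 19 bases of the mature miRNA. Whether members that share a seed also share signal on their probes was not tested, and neither was the match of the mouse probes to the squirrel's miRNAs.

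All 5 members were brightest in the post-reproduction liver, and the liver of both hibernation stages held less signal for each of them. miR-200b and miR-200a, of the chromosome 4 cluster, were detected on every array. miR-429, of the same cluster, and both members of the chromosome 6 cluster, miR-200c and miR-141, stayed below detection on all 3 arrays by the rule used here. By that rule a probe is detected where over 50% of its spots are marked well above background by the scanner program. By it 152 mouse entries were detected in early arousal liver (26.8%), 158 in late torpor liver (27.9%) and 143 in post-reproduction (25.2%). Of all 567 entries, 42% had their highest mean intensity on the post-reproduction array, 37% after the arrays were scaled to each other, and 41.8% by the total signal that the scanner program gives per entry. Of the 5 members, 5 were highest there by each of these measures. Among the 135 entries measured on all arrays, which include miR-200b and miR-200a, the shares were 51.1%, 27.4% and 50.4% in the same order of measures. Among the 401 entries detected on no array, which include the other 3 members, they were 40.9%, 42.1% and 40.9%.

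**Figure D1:**
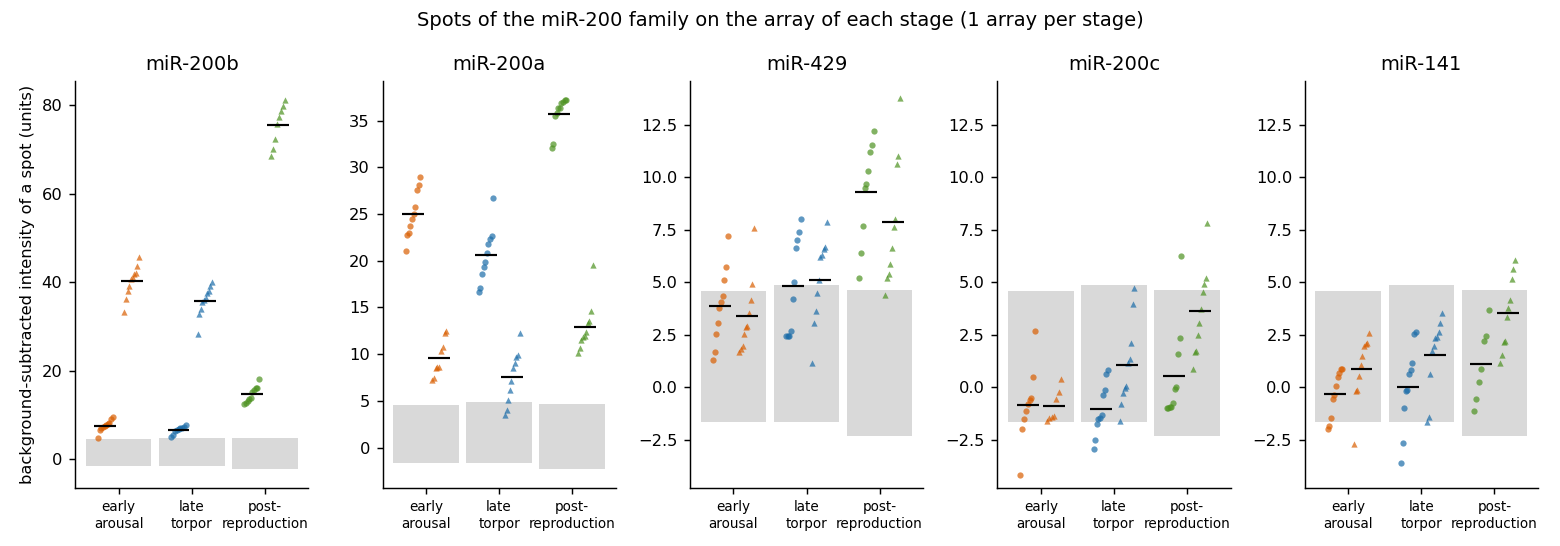
Background-subtracted intensity (units, linear axes that differ between panels except for the last 3) of the spots of the 5 members on the array of each stage, with circles and triangles for the 2 probes of a member, black lines for the mean of a probe, and grey bands from the 5th to the 95th percentile of the negative control spots of that array. The spots of miR-200b and all but 2 of those of miR-200a, both in late torpor, stand above the bands, miR-429 lies mostly above the band in post-reproduction, and most spots of miR-200c and miR-141 lie inside it.

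miR-200b lies at the end of the chromosome 4 cluster opposite to miR-429. Its brighter probe, with a target of 17 bases, had 40.2 ± 3.60 intensity units in early arousal liver (SD over 10 spots), 35.8 ± 3.45 in late torpor liver (10 spots) and 75.5 ± 4.70 in post-reproduction (8 spots, the program having marked 2 others as outliers). Its spots ran from 33.3 to 45.8 in early arousal liver, from 28.3 to 40.0 in late torpor liver and from 68.5 to 81.3 in post-reproduction. The spots of both hibernation arrays therefore lay below those of the post-reproduction array without overlap, also after scaling, while the 2 hibernation arrays overlapped.

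The second probe of miR-200b, with a target of 16 bases, ran the same way. It had 7.54 ± 1.31 units for early arousal liver (SD, 10 spots), 6.58 ± 0.846 for late torpor liver (9 spots) and 14.7 ± 1.83 for post-reproduction (10 spots). None of its spots was well above background on the arrays of early arousal and late torpor, and 10 of 10 were in post-reproduction. The lowest signal well above background on the hibernation arrays was 10.1 units for early arousal and 8.49 for late torpor, before scaling. Bounds were set with these signals after the arrays were scaled to each other, as described further on. By them this probe was at least 1.27-fold lower in early arousal and at least 1.51-fold lower in late torpor, both against post-reproduction. This probe did not enter the differences given further on, which rest on probes detected on all arrays.

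miR-200a has the other seed and lies between miR-429 and miR-200b in the chromosome 4 cluster. Its brighter probe had 25.0 ± 2.58 units in early arousal liver, 20.6 ± 2.99 in late torpor liver and 35.7 ± 1.90 in post-reproduction (SD over 10 spots each). The spots of late torpor, which reached 26.7, stayed below the lowest of post-reproduction, 32.0, also after scaling. Those of early arousal reached 29.0 and overlapped those of post-reproduction after scaling. Its dimmer probe had 9.57 ± 1.97 units in early arousal liver (9 spots), 7.52 ± 2.84 in late torpor liver and 13.0 ± 2.68 in post-reproduction (10 spots each), and its spots overlapped between all arrays. Of these spots, 4 of 9, 5 of 10 and 9 of 10 were well above background in the same order of stages.

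To compare stages, each array's log2 intensities were set relative to the 75th percentile over those of its probes that every array detected. This scale was 350.4 units for early arousal liver, 349 for late torpor liver and 398 for post-reproduction, so part of the brighter signal in post-reproduction was taken away by the scaling. A standard error (SE) comes from spots alone. An entry counts as past a rule of size where its log2 difference is at least 1, more than 2 times its SE and of one sign in its detected probes. With 135 mouse entries measured, 2.22% were past the rule as higher and 0% as lower in late torpor against post-reproduction. In early arousal against post-reproduction these shares were 2.96% and 0.741%, and in early arousal against late torpor they were 1.48% each. Neither miR-200b nor miR-200a was past the rule in any of the 3 comparisons.

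In late torpor against post-reproduction, miR-200b had the lowest log2 difference of the 135 measured entries, -0.89 ± 0.06 (SE from spots), which is 1.86-fold lower in late torpor (95% interval from spots 1.72 to 2.005). miR-200a, with -0.62 ± 0.07 (1.53-fold lower, 1.39 to 1.68), was the 6th lowest. Under 7 other settings, among them no scaling (-1.08) and the median as scale (-1.003), miR-200b passed the rule. Its rank stayed at 1 or 2 under all 14 settings tried, and that of miR-200a ranged from 3 to 21. Settings that change only the scale move all entries of an array equally, so they cannot change a rank. The median of all measured entries was 0.13, and 34.8% of them were below 0, as both members were. Relative to that median, which moves with the scaling, miR-200b lay at -1.02 and miR-200a at -0.75. After normexp background correction with an offset of 50 units, miR-200b was at -0.36 and miR-200a at -0.061.

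In early arousal against post-reproduction, miR-200b was the 4th lowest of the 135 with -0.73 ± 0.05 (1.66-fold lower in early arousal, 95% interval from spots 1.54 to 1.78). miR-200a was 24th lowest with -0.33 ± 0.05 (1.26-fold lower, 1.17 to 1.35). Under the 14 other settings the rank from the lowest ranged from 3 to 10 for miR-200b and from 21 to 40 for miR-200a. The median of all measured entries was 0.062 and 44.4% were below 0. Relative to the median, miR-200b lay at -0.79 and miR-200a at -0.39. With the 75th percentile of all probes as scale, miR-200b passed the rule at -1.10. The median of all measured entries moved to -0.31 with that scale, and miR-200b stayed at -0.79 relative to it, with its rank unchanged. After normexp, miR-200b was at -0.29 and miR-200a at -0.020. The 2 comparisons share the post-reproduction array, so a bright or dim spot there enters both.

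**Figure D2:**
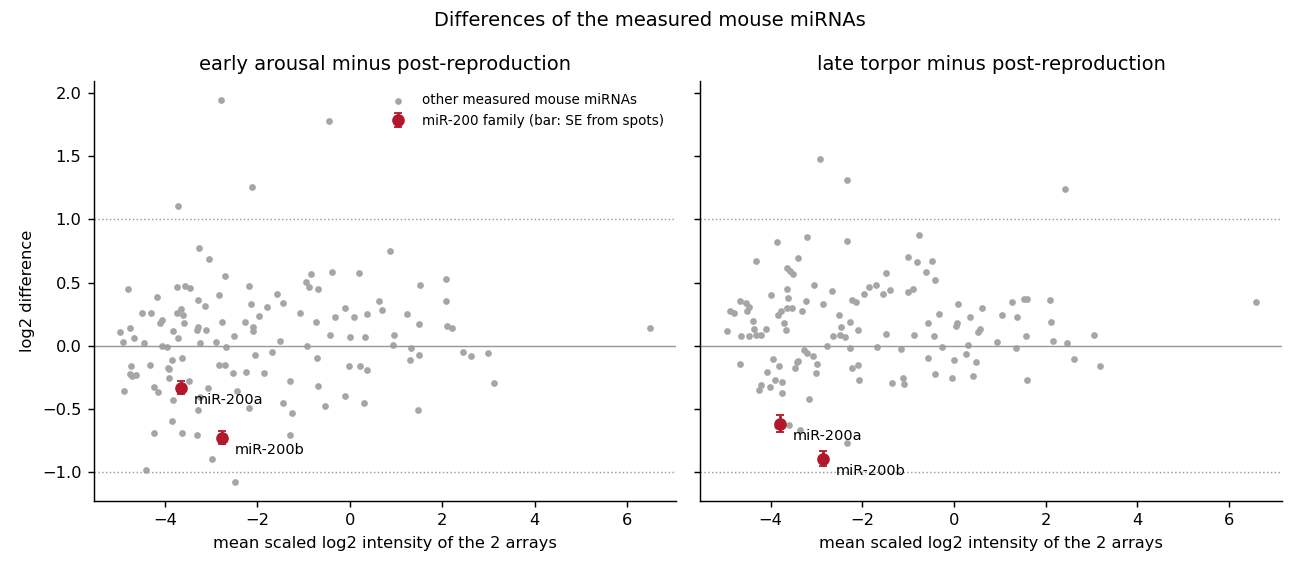
Log2 difference between stages (vertical axis) against the mean scaled log2 intensity of the 2 arrays (horizontal axis, log2 relative to the 75th percentile of each array) for the 135 measured mouse miRNAs, with early arousal minus post-reproduction on the left and late torpor minus post-reproduction on the right. Red points are miR-200a and miR-200b with their SE from spots, dotted lines mark the rule of size at 1 and -1, and miR-200b is the lowest point on the right at -0.89.

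In early arousal against late torpor, miR-200a had a log2 difference of 0.28 ± 0.08 and miR-200b of 0.16 ± 0.06, each on 1 probe with 10 spots per array, and the spots of that probe overlapped between the arrays for both. The median of all measured entries was -0.094, with 65.2% below 0. Their ranks were 12th and 23rd from the highest. With the 75th percentile of all probes as scale, spots at or below 0 being set to the floor, miR-200b turned to -0.084. The median of all measured entries moved to -0.34 with that scale, and the rank of miR-200b did not change. For miR-429, miR-200c and miR-141 the difference of mean intensity was -1.33 ± 0.630, -0.874 ± 0.509 and -0.486 ± 0.525 units (SE from spots), at levels near background. For miR-200c only 1 of its 2 probes was below 0, and with outlier spots kept its order turned round, with 0.763 units on the early arousal array and 0.0163 on that of late torpor.

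miR-429 came closest to detection among the other members. Its 2 probes had 3.88 ± 1.84 and 3.40 ± 1.79 units in early arousal liver (SD, 10 spots each), 4.83 ± 2.28 and 5.11 ± 2.03 in late torpor liver (10 spots each), and 9.29 ± 2.40 and 7.85 ± 3.04 in post-reproduction (9 and 10 spots). None of 20 spots was well above background in early arousal or late torpor, against 5 of 19 in post-reproduction. The scanner program's own call per entry, a deposited flag, was detected in post-reproduction and not detected on the other arrays. The mean over its probes differed from post-reproduction by -4.93 ± 0.745 units in early arousal (SE from spots) and by -3.60 ± 0.790 units in late torpor, and its spots overlapped between stages. These differences, and those in units for miR-200c and miR-141, are of intensities that were not scaled between arrays. After scaling they were -4.07 and -2.66 units for miR-429, and unscaled with outlier spots kept -7.08 and -5.75 units. No fold is given, since the signal in both hibernation stages was not well above background.

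miR-200c, which shares the seed of miR-429 and miR-200b but lies in the chromosome 6 cluster, was near the background of the arrays. The probe with a target of 16 bases had -0.884 ± 0.768 units in early arousal liver (SD, 7 spots), 1.07 ± 2.04 in late torpor liver (10 spots) and 3.61 ± 2.08 in post-reproduction (10 spots). Its other probe had -0.831 ± 1.85, -1.04 ± 1.26 and 0.557 ± 2.32 units in the same order of stages (9, 10 and 10 spots). The mean over both differed from post-reproduction by -2.94 ± 0.599 units in early arousal liver and by -2.07 ± 0.621 units in late torpor. The spots of the 16-base probe did not overlap between early arousal, where they reached 0.388, and post-reproduction, where they began at 0.895, and in the other cases they overlapped. In early arousal 4 of its 20 spots carried the program's outlier mark. With them kept, the spots of the 16-base probe overlapped here too, since a marked spot reached 3.52 units. The difference of the mean over both probes to post-reproduction was then -1.32 units.

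miR-141, the partner of miR-200c in that cluster and of miR-200a in the seed, was near background too. Its brighter probe had 0.891 ± 1.58 units in early arousal liver, 1.53 ± 1.79 in late torpor liver and 3.53 ± 1.74 in post-reproduction (SD, 10 spots each). Its other probe had -0.312 ± 1.12, 0.0262 ± 2.02 and 1.11 ± 1.74 units in the same order (10, 10 and 7 spots). The mean over both differed from post-reproduction by -2.03 ± 0.526 units in early arousal liver and by -1.55 ± 0.604 units in late torpor, again with spots that overlapped. With its 3 outlier spots kept, all on the post-reproduction array, these differences were -3.38 and -2.89 units. No spot of miR-141 or miR-200c that was kept was well above background on any array.

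These levels can be read against the background of the arrays. The negative control spots, 645 to 659 kept per array, had a median of 1.30 units in early arousal liver, 1.65 in late torpor liver and 1.14 in post-reproduction, and their 95th percentile was 4.60, 4.86 and 4.66. The mean of miR-429, 8.57 units in post-reproduction, was above that percentile, and those of miR-141 (2.32) and miR-200c (2.08) were below it. A second flag of the scanner program marks a spot as positive and significant against background. It was set for 33.6% of negative control spots in early arousal liver, 49.2% in late torpor liver and 34.1% in post-reproduction. For miR-429 it was set in 75%, 95% and 100% of spots in the same order, for miR-141 in 15%, 45% and 64.7% and for miR-200c in 6.25%, 15% and 45%. For miR-141 and miR-200c the share was above that of the control spots on the post-reproduction array alone. Over the spots of the 401 mouse entries detected on no array, the flag was set in 18.4%, 23.6% and 19.5%. Against those shares miR-141 was above in late torpor too, and miR-200c again in post-reproduction alone.

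Among the 401 mouse entries detected on no array, miR-429 had the lowest difference in both comparisons with post-reproduction. It also had the highest intensity of that set in post-reproduction, which favours a low rank for a difference in linear units, so its rank is a description only. miR-200c was 3rd lowest in early arousal and 5th lowest in late torpor, and miR-141 was 12th and 13th lowest. The median difference of these entries was -0.174 units in early arousal liver and -0.121 in late torpor liver, both against post-reproduction. These ranks describe 1 set of arrays that share the post-reproduction array, and the set leaves out every entry that any array detected. With outlier spots kept, miR-429 was 3rd lowest in both comparisons, and miR-200c was 56th and 22nd. With medians over spots, miR-141 was 25th and 34th.

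**Figure D3:**
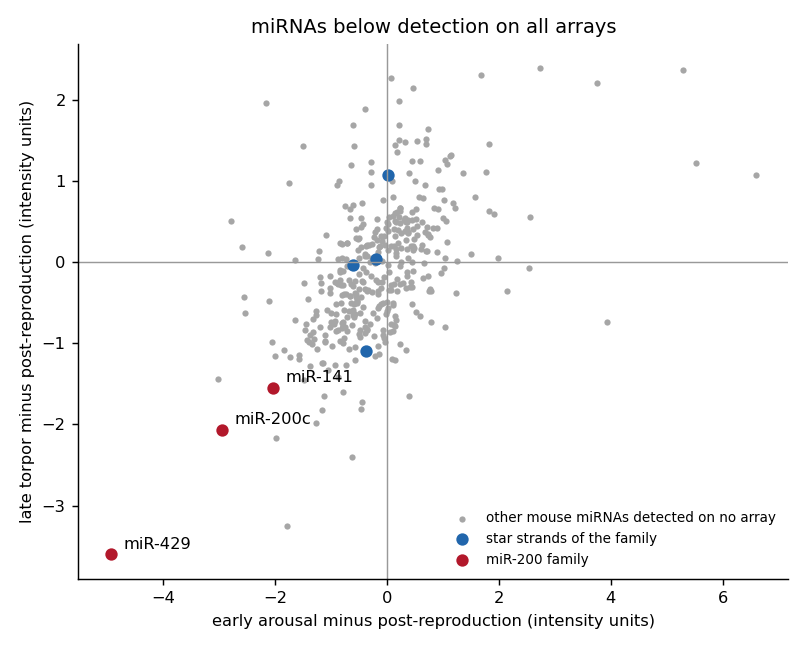
Difference of mean intensity (units, linear) for the 401 mouse miRNAs detected on no array, with early arousal minus post-reproduction on the horizontal axis and late torpor minus post-reproduction on the vertical axis, which share the post-reproduction array. Red points are miR-429, miR-200c and miR-141, all below 0 on both axes, and blue points are the 4 star strands of the family, which lie within the cloud of other entries in grey.

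The scanner program's total signal per entry, which carries an error of the program's own, gave each member the same order of stages as its mean intensity. Post-reproduction was highest for all 5 members. Early arousal was above late torpor for miR-200b and miR-200a and below it for miR-429, miR-200c and miR-141. For miR-200b it was 33.9 ± 3.56 in early arousal liver, 30.3 ± 3.13 in late torpor liver and 64.5 ± 5.91 in post-reproduction. For miR-200a it was 24.6 ± 2.79, 20.1 ± 2.34 and 34.8 ± 3.47, and for miR-429 it was 5.17 ± 2.07, 7.11 ± 1.80 and 12.2 ± 2.33. The errors of post-reproduction and of both hibernation stages did not overlap for these 3 members as deposited. These total signals are not scaled between arrays, and the post-reproduction array had the highest scale (398 units, against 350 in early arousal and 349 in late torpor). Part of the gap therefore lies in the brighter array, and whether the errors stay apart after scaling was not tested. For miR-200c it was -1.22 ± 2.04, 0.0234 ± 1.73 and 2.98 ± 2.18, and for miR-141 it was 0.411 ± 2.04, 1.11 ± 1.73 and 3.32 ± 2.17. For miR-200c and miR-141 the ranges of all stages overlapped.

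The passenger strands of the same hairpins, called star strands, carry other sequences and served as a comparison within each cluster. The array listed 4 of them, miR-200a*, miR-200b*, miR-200c* and miR-141*. None was detected, and their mean intensities ran from -1.19 to 0.0595 units over all arrays. By mean intensity and by total signal 2 of the 4 were highest in post-reproduction, and 3 of 4 after scaling. miR-200b* had -0.317 units in early arousal liver, -1.03 in late torpor liver and 0.0595 in post-reproduction, and miR-200a* had -1.11, -0.548 and -0.510. miR-200c* had -1.13, -0.0834 and -1.16 units and was highest in late torpor, and miR-141*, with -1.19, -0.974 and -1.01, was so too. At this level a difference in a star strand was not detectable.

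Of 7 other miRNAs known from epithelia, 2 were detected on all arrays, miR-31 and miR-203, which are known from skin and other lining epithelia. Of all 567 mouse entries, 135 were measured on all arrays. miR-31 had a mean of 135 units in early arousal liver, 138 in late torpor liver and 148 in post-reproduction. The means in units are not scaled between arrays, and the log2 differences are. By its unscaled mean miR-31 was highest in post-reproduction, as the miR-200 family was, and miR-203 was not. After scaling, the log2 difference of miR-31 to post-reproduction was 0.039 ± 0.02 in early arousal and 0.089 ± 0.02 in late torpor. miR-203 had 22.4, 19.9 and 20.2 units in the same order of stages, and log2 differences of 0.24 ± 0.05 and 0.12 ± 0.06. These lay within 0.2 of the medians of all measured entries (0.062 and 0.13), and 0 of 2 were below 0, as 34.8% of all entries were in late torpor and 44.4% in early arousal. miR-205, miR-183, miR-96, miR-182 and miR-375 were not detected, with means from -1.51 to 4.02 units.

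Markers of other cells in the liver samples were read from the same arrays. The 7 hepatocyte miRNAs on the array were detected at each stage, where 26.8%, 27.9% and 25.2% of all mouse entries were. Their summed mean intensities were 41807 units in early arousal liver, 47496 in late torpor liver and 42105 in post-reproduction. The 3 red blood cell miRNAs (miR-144, miR-451 and miR-486) summed to 1954, 3223 and 1549 units. Of these, 3 of 3 were past the rule of size as higher in late torpor than post-reproduction liver. They were the only entries past it as higher there, 2.22% of the 135 measured. The lists were chosen with earlier results of these data known. The leukocyte list, with 6 of 7 detected, summed to 444, 617 and 505 units. The mesenchymal list (5 of 5 detected) summed to 254, 289 and 332 units and the endothelial list (4 of 4) to 1174, 1284 and 1280. These sums are not scaled between arrays. After scaling, the median log2 difference to post-reproduction was -0.013 in early arousal and -0.016 in late torpor for the mesenchymal list, and -0.11 and 0.024 for the endothelial list. It was 0.16 and 0.30 for the hepatocyte list, 0.53 and 1.31 for the red blood cell list, and -0.19 and 0.37 for the leukocyte list. The part of the makeup of the tissue in the differences of the miR-200 family was not tested.

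The entries most like each measured member over the 3 arrays were found by the root mean square difference of scaled log2 intensity after centring each entry on its own mean. miR-320 was the nearest to both, at 0.072 from miR-200a and 0.10 from miR-200b, against a median over the other 134 entries of 0.33 and 0.46. miR-320 had log2 differences of -0.51 in early arousal and -0.67 in late torpor, both against post-reproduction. Next to miR-200b came miR-152 (0.11) and miR-186 (0.12), with miR-200a in 4th place at 0.17. Next to miR-200a came miR-204 (0.11) and miR-466f-3p (0.12), with miR-200b in 8th place. The measure rests on 3 arrays.

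**Figure D4:**
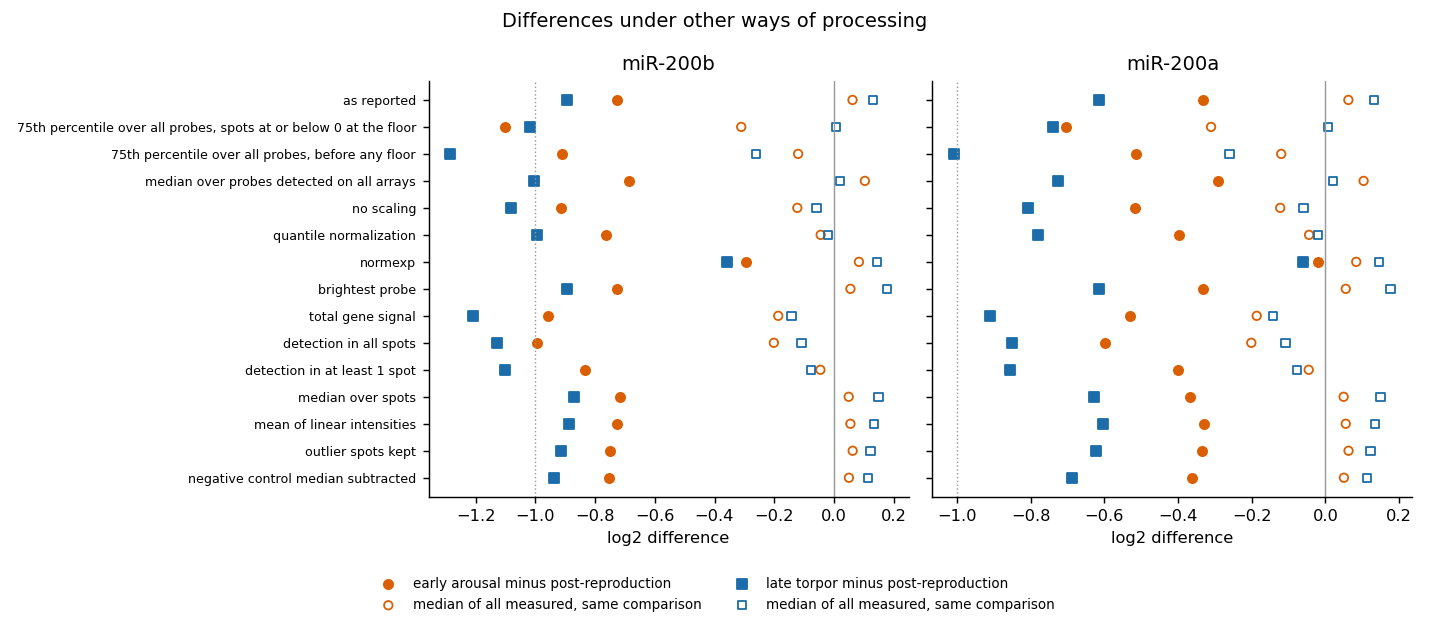
Log2 difference of miR-200b (left) and miR-200a (right) to post-reproduction as reported and under 14 other ways of processing (rows), with circles for early arousal, squares for late torpor, open symbols for the median of all measured entries in the same comparison, and a dotted line for the rule of size at -1. Every filled symbol lies below 0 and below its open symbol, and those of normexp lie nearest to 0. The filled symbols of the brightest probe repeat those as reported, since each member had 1 measured probe.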

How the data were processed

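Each of 3 pools of liver RNA was hybridised to 1 array. Spot values come from Agilent Feature Extraction 9.5.3.1, per the submitters' processing notes. Per the file headers, the program subtracted a spatial background trend to make the deposited intensity, and arrays were not normalized to each other. A series table from the authors repeats this linear intensity at 12493 of 12493 spots (column medians 1.05, 1.15 and 1.13 in the order early arousal, late torpor, post-reproduction). Spots with an outlier mark were left out (398, 280 and 317 of 11540 miRNA spots in that order), and none was saturated. log2 intensities were averaged over the spots of a probe. Spots at or below 0 were set to the lowest signal well above background on that array. Scaling used the 75th percentile of 250 probes that every array detected. An entry's value is the mean over such probes. Python 3.11.15, pandas 2.3.3 and limma 3.58.1 (normexp) were used, and the code was tested on simulated data. Gene names are those of the array design. Members, lists and rules were chosen with earlier results of these data known. The named miRNAs are the 5 members, their star strands and the 3 entries most alike for each measured member, and miR-31 and miR-203, with the other epithelial miRNAs, come from a fixed list. No sequence of a miRNA or probe is printed, since none of the sources used here gave them.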

Additional observations from a re-analysis of the deposited data

How the results depend on the processing

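The differences of miR-200b and miR-200a to post-reproduction stayed below 0 under all 14 alternatives. The brightest-probe setting could not change them, since each of these members had 1 measured probe. Settings that change only the scale leave the distance to the median of all measured entries as it is. In late torpor the differences of miR-200b and miR-200a ranged from -1.28 to -0.36 and from -1.01 to -0.061, and in early arousal from -1.10 to -0.29 and from -0.70 to -0.020. In late torpor miR-200b passed the rule of size with the 75th percentile of all probes (-1.02), the same before any floor (-1.28), the median (-1.003), no scaling (-1.08), the total gene signal (-1.21), detection in all spots (-1.13) and detection in at least 1 spot (-1.10). miR-200a did so before any floor (-1.01). In early arousal miR-200b passed with all probes (-1.10), where the median of all measured entries moved from 0.062 to -0.31. In early arousal against late torpor miR-200b turned to -0.084 with all probes, where the median of all measured entries moved from -0.094 to -0.34. Relative to that median miR-200b lay at 0.26 both as reported and with this scale. The cause of the differences between stages was not tested. The number of measured entries past the rule in late torpor against post-reproduction was 3 (all higher) and became 7 before any floor (1 higher, 6 lower), 1 with normexp, 5 with detection in all spots and 7 with detection in at least 1 spot, and it was 4 (3 higher, 1 lower) with all probes, the median and no scaling. In early arousal against post-reproduction it was 5 (4 higher, 1 lower) and became 10 with all probes (2 higher, 8 lower) and 2 with normexp, and the split was 3 and 3 before any floor and without scaling and 4 and 2 after quantile normalization. In early arousal against late torpor it was 4 (2 and 2), became 0 with normexp, and was 0 higher and 5 lower with all probes. Normexp adds 50 units to every spot, which brings log2 values of dim probes together. It also starts from the mean signal and background median of each spot in place of the deposited intensity. No other offset was tried, so the parts of the offset and of the other input were not tested. In post-reproduction 3 members, with miR-429, counted as detected with 1 spot sufficing or by the program's own flag. The subtraction of the negative control median and the settings for undetected members were chosen after the data were examined. No paired analysis was possible because each stage had 1 array. Signal near background limits miR-429, miR-200c and miR-141.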
